A study of Drosophila melanogaster with 8 samples.

Results

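The genes described here encode the ion channels and transmitter receptors that set how nerve cells fire and answer each other, whose transcripts were measured here in heads of female Drosophila melanogaster. A list of 44 such genes was matched to the array through its platform annotation, and 41 had at least 1 probe set that carried only that gene's symbol, of 11982 genes with such a probe set in all. The other 3 (KCNQ, nAChRalpha6 and mAChR-A) were not analysed here. Where a gene had several probe sets, the one with the highest mean over all arrays stood for it. Both groups were wild-type flies of the Canton S strain that shared 1 regime, 12.5 °C with 14 h of light and 10 h of dark, entered within 8 h of eclosion and kept for 12 days. They differed in what dissection showed of their ovaries, which sorted them into diapause and non-diapause females, with 4 arrays of head RNA for each group and 8 in all. Flies were therefore assigned to a group by ovarian state and not by treatment. The sources used here do not give the number of heads in an RNA sample. The published methods give a shorter window after eclosion and, for expression profiling, a slightly lower temperature than stated above.

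Voltage-gated sodium channels carry the upstroke of the action potential, potassium channels end it and set the interval to the next one, and calcium channels at the nerve terminal couple it to transmitter release. In the fly brain acetylcholine is the main fast excitatory transmitter, acting on nicotinic receptors that are themselves ion channels, while GABA, glutamate and histamine open chloride channels that mostly inhibit the cell. Transient receptor potential (TRP) channels of the sensory kinds respond to heat, irritants or movement in sensory neurons.

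The deposited values are log2 signals with a floor of 2.16, and every level below is on that scale, while every difference is diapause minus non-diapause on the same scale. Any pair of arrays correlated with a Pearson's r of 0.976 to 0.998 across probe sets. The labelled tissue was checked by its markers: the mean signal of 10 detected neuron markers was 10.06 to 10.90 on diapause and 9.96 to 10.64 on non-diapause arrays, that of 5 photoreceptor markers was 13.57 to 13.96 and 13.62 to 13.98, and 0 of 6 ovary markers were detected. Midgut markers were also present, with a mean of 11.49 to 13.05 on diapause arrays and 2.38 to 13.45 on non-diapause arrays, the lowest on non-diapause 3. Whether arrays within a group stem from separate cultures of flies is not stated, so the p-values describe the variation among these 8 arrays and part of that variation may be technical. The small number of arrays limits precision. In whole heads, fewer cells of a type and less RNA per cell cannot be told apart.

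Of the 41 genes, 29 had a mean of at least 4 over the 8 arrays and are called detected. They covered all 9 classes: 3 of 4 sodium and leak channel genes, 4 of 5 voltage-gated potassium channel genes, 3 of 4 genes of the EAG and HCN families, both calcium-activated potassium channel genes, 3 of 4 calcium channel genes, 8 of 9 nicotinic receptor genes, 4 of 5 chloride channel genes, 1 of 3 glutamate receptor genes and 1 of 5 sensory TRP genes. The 12 genes below that level were the leak channel gene na, Shab, eag, Ca-alpha1T, nAChRalpha1, Grd, Nmdar2, mGluR, TrpA1, pyx, iav and nan. Of these, na, Grd and nan lay within 0.01 of the floor on every array, and eag, nAChRalpha1, Nmdar2, TrpA1, iav, Ca-alpha1T and mGluR had means between 2.16 and 2.76. Shab, a delayed rectifier potassium channel gene, lay just under the limit with a mean of 3.98, and Elk lay nearest above it with 4.52. The TRP channel gene pyx, also under the limit, read 3.40 to 3.42 on the diapause arrays and 3.42 to 3.62 on the non-diapause arrays. These groups were separated by less than 0.01, and no order was read from them.

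The comparison of the groups asked whether channel and receptor transcripts differ between heads of flies that arrested egg development and flies that did not, under shared light, temperature and age. No detected gene differed beyond the spread between arrays. In limma, with Benjamini-Hochberg adjustment over all 18769 probe sets, 0 of the 29 genes passed an adjusted p of 0.05, where 0% of all probe sets did, and the adjusted p was 1 for each of them. At an unadjusted p under 0.05 there were also 0 of 29, beside 6.13% of the 8760 probe sets that had a mean of 4 or more. The smallest unadjusted limma p values were 0.105, for Elk, and 0.107, for nAChRalpha4. The diapause and non-diapause arrays overlapped for each of the 29 genes, whereas 4.03% of the 8760 probe sets showed no overlap.

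Differences of the 29 genes ran from -0.14 to 0.78 with a median of 0.08, and 23 of them were above 0. Over the 8760 probe sets the median was 0.00447 and 51.4% were above 0. The count of 23 depended on single arrays: leaving out diapause 2 gave 9 (47.1% of the 8760 probe sets), leaving out non-diapause 1 gave 12 (45.2%), and leaving out non-diapause 2 also gave 12 (49.4%). It was 26 when diapause 3 (52.9%) or non-diapause 3 (54.9%) was left out. After a second quantile normalization 20 were above 0 (39.6%), and after centring arrays on their medians 17 (32.6%). The precision differed from gene to gene. The 95% interval of a difference reached a median of 0.69 to either side for the 29 genes, beside 0.30 for the 8760 probe sets. For 18 of the 29 genes the interval lay within -1 and 1, that is within a 2-fold change, and for 3 (Elk, slo and ort) within -0.5 and 0.5.

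**Figure D1:**
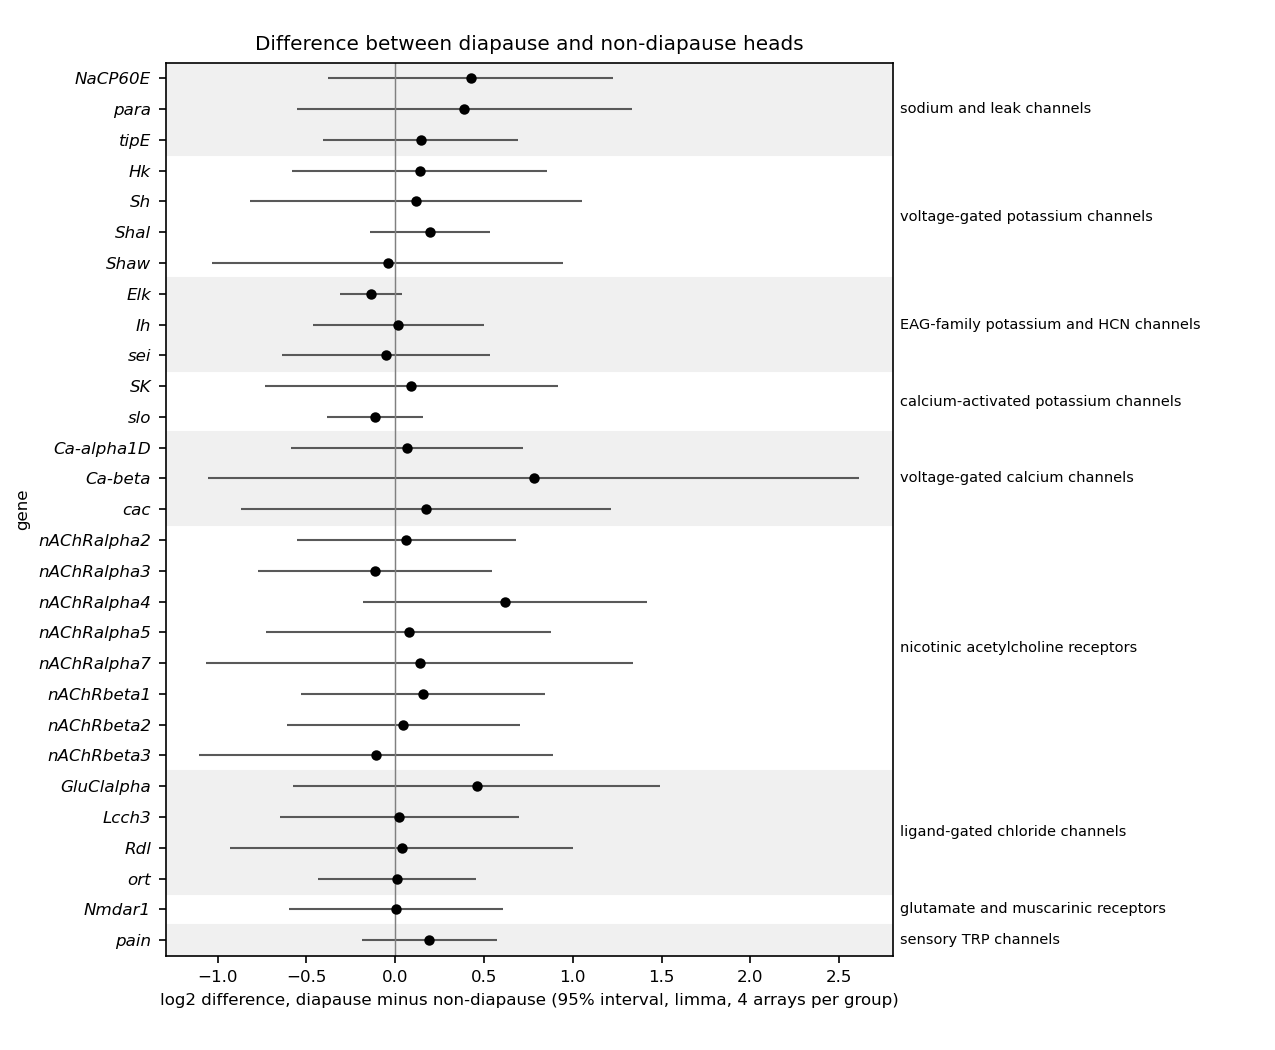
Difference between diapause and non-diapause heads for the 29 detected genes, on the log2 scale, grouped by class, with points for the difference and lines for the 95% limma interval (4 arrays per group). Every interval crosses 0, from the narrow one of Elk (-0.31 to 0.04) to the wide one of Ca-beta (-1.05 to 2.61).

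Among the sodium and leak channel genes, para encodes the fly's voltage-gated sodium channel, tipE an auxiliary subunit of it, and NaCP60E a further channel of the sodium and calcium channel superfamily. All 3 had a higher mean in diapause, by 0.14 to 0.43. NaCP60E, the gene with the largest difference of the class, stood at 8.67, 9.40, 8.48 and 8.89 on diapause arrays 1 to 4 and at 8.47, 7.66, 8.67 and 8.94 on non-diapause arrays 1 to 4. Non-diapause 2 was the low array, non-diapause 1 lay within 0.01 of the lowest diapause array, and the other two fell inside the span of the diapause group. Its difference was 0.43 (95% interval -0.38 to 1.23, exact permutation p = 0.343) and fell to 0.17 without non-diapause 2. The subunit gene tipE, at 8.89, 9.24, 8.45 and 8.78 in diapause and 8.48, 8.37, 9.10 and 8.84 in non-diapause, differed by 0.14 (-0.41 to 0.69, exact permutation p = 0.514). Its high arrays were diapause 2 and non-diapause 3, and the difference was 0.00986 without the former and 0.28 without the latter. The sodium channel gene para was added after its values were seen. It read 5.38, 5.68, 4.41 and 5.58 on the diapause arrays and 4.83, 4.26, 4.81 and 5.61 on the non-diapause arrays. One array in each group was low, diapause 3 and non-diapause 2, and the difference of 0.39 (-0.56 to 1.33, exact permutation p = 0.371) was smaller than the within-group ranges of 1.26 and 1.35.

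The voltage-gated potassium channels Sh, Shal and Shaw repolarise the membrane, and Hk encodes the beta subunit that binds the Sh channel. Shal, which carries a transient current in cell bodies and dendrites, had the largest difference of this class. Its values were 5.89, 6.20, 5.79 and 6.15 in diapause and 5.63, 5.64, 6.04 and 5.93 in non-diapause. Non-diapause 1 and 2 lay below every diapause array, while the other two overlapped with them, and the difference was 0.20 (-0.14 to 0.54, exact permutation p = 0.200). Hk stood at 10.87, 11.56, 10.36 and 11.10 in diapause and at 10.57, 10.52, 11.24 and 11.03 in non-diapause (difference 0.14, -0.58 to 0.85, exact permutation p = 0.657). Sh, added after its values were seen, gave 10.53, 11.12, 9.59 and 10.57 against 9.95, 9.92, 10.91 and 10.55. For both genes of this channel complex, diapause 2 and non-diapause 3 were the highest arrays of their groups and diapause 3 and non-diapause 2 the lowest. Without diapause 2 the difference turned to -0.06 for Hk and to -0.10 for Sh. Shaw, a channel of the same superfamily that opens at depolarised voltages, differed by -0.04 (-1.03 to 0.95).

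The EAG family is named for the leg-shaking mutant eag and includes sei, the fly relative of the ERG channels, and Elk, while Ih encodes the hyperpolarisation-activated HCN channel. Elk had the smallest p of all 29 genes and a small difference. It read 4.33, 4.49, 4.58 and 4.39 in diapause and 4.49, 4.51, 4.69 and 4.64 in non-diapause, so that diapause 1, 2 and 4 lay below all non-diapause arrays, diapause 2 by less than 0.01, while diapause 3 overlapped with them. The difference was -0.14 (-0.31 to 0.04, exact permutation p = 0.114). Its unadjusted limma p was 0.0430 without diapause 3 (difference -0.18), with an adjusted p of 1 there too. Ih stood at 11.59, 11.98, 11.19 and 11.71 in diapause against 11.39, 11.41, 11.90 and 11.70 in non-diapause, a difference of 0.02 (-0.47 to 0.50, exact permutation p = 0.943) that was -0.10 without diapause 2. The difference of sei was -0.05 (-0.64 to 0.54).

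Both calcium-activated potassium channel genes were detected: slo, for the large-conductance BK channel, and SK, for the small-conductance channel that shapes the pause after a spike. For slo the arrays read 8.91, 8.82, 9.07 and 9.24 in diapause and 9.19, 8.93, 9.12 and 9.24 in non-diapause. The groups overlapped over most of their span, with a difference of -0.11 (-0.38 to 0.16, exact permutation p = 0.314), which ran from -0.19 to -0.05 with single arrays left out. SK gave 10.97, 11.87, 10.60 and 11.35 in diapause and 10.71, 10.77, 11.63 and 11.32 in non-diapause, with diapause 2 and non-diapause 3 again on top of their groups. Its difference was 0.09 (-0.74 to 0.92, exact permutation p of 0.800), and it was -0.13 without diapause 2.

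Of the calcium channel genes, cac encodes the pore of the presynaptic channel that triggers transmitter release, Ca-alpha1D an L-type pore and Ca-beta the cytoplasmic beta subunit. Ca-beta had the largest difference of all 29 genes, 0.78, and also the widest interval, -1.05 to 2.61 (exact permutation p = 0.371). Its arrays read 6.75, 7.74, 5.95 and 6.82 in diapause and 6.24, 4.10, 6.46 and 7.34 in non-diapause. A single array, non-diapause 2, lay far below the other 7, and without it the difference was 0.14. For cac the values were 10.63, 11.42, 9.69 and 10.69 in diapause and 10.24, 9.84, 11.09 and 10.58 in non-diapause. The diapause arrays spanned 1.73, from diapause 3 to diapause 2, against a difference of 0.17 (-0.87 to 1.21, exact permutation p = 0.714). That difference was -0.10 without diapause 2 and -0.03 without non-diapause 2. Ca-alpha1D differed by 0.07 (-0.59 to 0.72).

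Nicotinic receptors are pentamers of alpha and beta subunits, and 8 of their genes were detected, of which 6 had a higher mean in diapause and 2, nAChRalpha3 and nAChRbeta3, a lower one. Differences of the class ran from -0.12 to 0.62 with a median of 0.07. The top of that range was nAChRalpha4, at 7.93, 8.21, 7.60 and 7.79 in diapause and 7.68, 6.43, 7.14 and 7.80 in non-diapause. Non-diapause 2 and 3 lay below every diapause array, while non-diapause 1 and 4 fell among them. The difference of 0.62 had an interval of -0.18 to 1.42 (exact permutation p = 0.143), and it was 0.34 without non-diapause 2. For the subunit gene nAChRbeta1 the arrays gave 12.02, 12.69, 11.70 and 12.14 in diapause and 11.64, 11.75, 12.57 and 11.98 in non-diapause (difference 0.15, -0.53 to 0.84, exact permutation p = 0.571). Diapause 2 and non-diapause 3 were the high arrays, and without diapause 2 the difference was -0.03.

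The remaining nicotinic genes differed by less than the widths of their intervals. For nAChRalpha2, nAChRalpha5 and nAChRalpha7 the differences were 0.06, 0.08 and 0.14, for nAChRbeta2 0.05 and for nAChRalpha3 -0.12. In the reference annotation nAChRalpha2 and nAChRbeta2 are neighbours with 0 genes between them, and nAChRalpha1 and nAChRalpha2 have 1 gene between them. The neighbouring pair moved alike from array to array, but this was not particular to the pair. Of the 29 detected genes, 20 were likewise highest on diapause 2 and non-diapause 3. The gene nAChRalpha2 stood at 8.37, 9.002, 7.97 and 8.58 in diapause and 8.19, 8.22, 8.84 and 8.41 in non-diapause, and nAChRbeta2 at 9.43, 10.14, 9.09 and 9.69 and at 9.28, 9.39, 10.02 and 9.47. Their cluster mate nAChRalpha1 was not detected. The gene nAChRbeta3, singled out after its values were seen, ran the other way. It read 7.81, 6.79, 8.00 and 7.76 in diapause and 7.96, 8.02, 6.73 and 8.09 in non-diapause, so that diapause 2 and non-diapause 3, the high arrays of most genes here, were its lowest. Its difference was -0.11 (-1.11 to 0.89, exact permutation p = 0.571).

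Fast inhibition in the fly runs through the GABA receptor subunits Rdl, Lcch3 and Grd, the glutamate-gated chloride channel GluClalpha and the histamine-gated channel ort, which receives the photoreceptors' signal. The 4 detected genes had differences from 0.01 to 0.46. GluClalpha gave 9.97, 10.57, 9.29 and 9.95 in diapause and 9.44, 8.54, 9.76 and 10.21 in non-diapause, a difference of 0.46 (-0.57 to 1.49, exact permutation p = 0.371) that fell to 0.14 without non-diapause 2, its lowest array. Lcch3 stood at 9.75, 10.36, 9.29 and 9.81 in diapause and at 9.58, 9.57, 10.33 and 9.63 in non-diapause. Diapause 2 and non-diapause 3 were nearly equal at the top, and the difference was 0.02 (-0.65 to 0.69, exact permutation p = 0.971), or -0.16 without diapause 2. Rdl, the subunit that insecticides such as dieldrin act on, differed by 0.04 with an interval reaching 0.97 to either side, and ort by 0.01 (-0.44 to 0.45).

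Nmdar1, the obligatory subunit of the NMDA-type glutamate receptor, was the 1 detected gene of its class. Its arrays read 7.73, 8.44, 7.68 and 8.00 in diapause and 7.62, 8.04, 8.46 and 7.72 in non-diapause, with a difference of 0.00388 (-0.60 to 0.60, exact permutation p = 0.971). Each group had 1 array at the top, diapause 2 and non-diapause 3, and the difference was -0.15 without diapause 2. Its partner subunit gene Nmdar2, with a mean of 2.19, was not detected. Of the sensory TRP genes, pain, whose channel is needed for the response of larvae to noxious heat, gave 7.48, 7.35, 7.68 and 7.46 in diapause and 7.09, 7.44, 7.02 and 7.64 in non-diapause. Non-diapause 1 and 3 lay below every diapause array, and the difference was 0.19 (-0.19 to 0.57, exact permutation p = 0.257), and leaving out single arrays gave 0.10 (non-diapause 3) to 0.31 (non-diapause 4).

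The most regular feature of these genes was a spread between arrays that they shared within both groups. The range over 4 arrays had a median of 1.05 in diapause and 0.83 in non-diapause for the 29 genes, against 0.40 and 0.37 for the 8760 probe sets. Diapause 2 was the highest diapause array for 25 of the 29 genes (36.8% of the 8760 probe sets) and diapause 3 the lowest for 24 (37.1%). Non-diapause 3 was the highest of its group for 21 (37.4%) and non-diapause 2 the lowest for 16 (24.7%). For 20 genes both high arrays were the same, diapause 2 and non-diapause 3, as for 27.2% of the 8760 probe sets. Since the 29 genes were read from the same 8 arrays, they are not independent observations of this order.

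**Figure D2:**
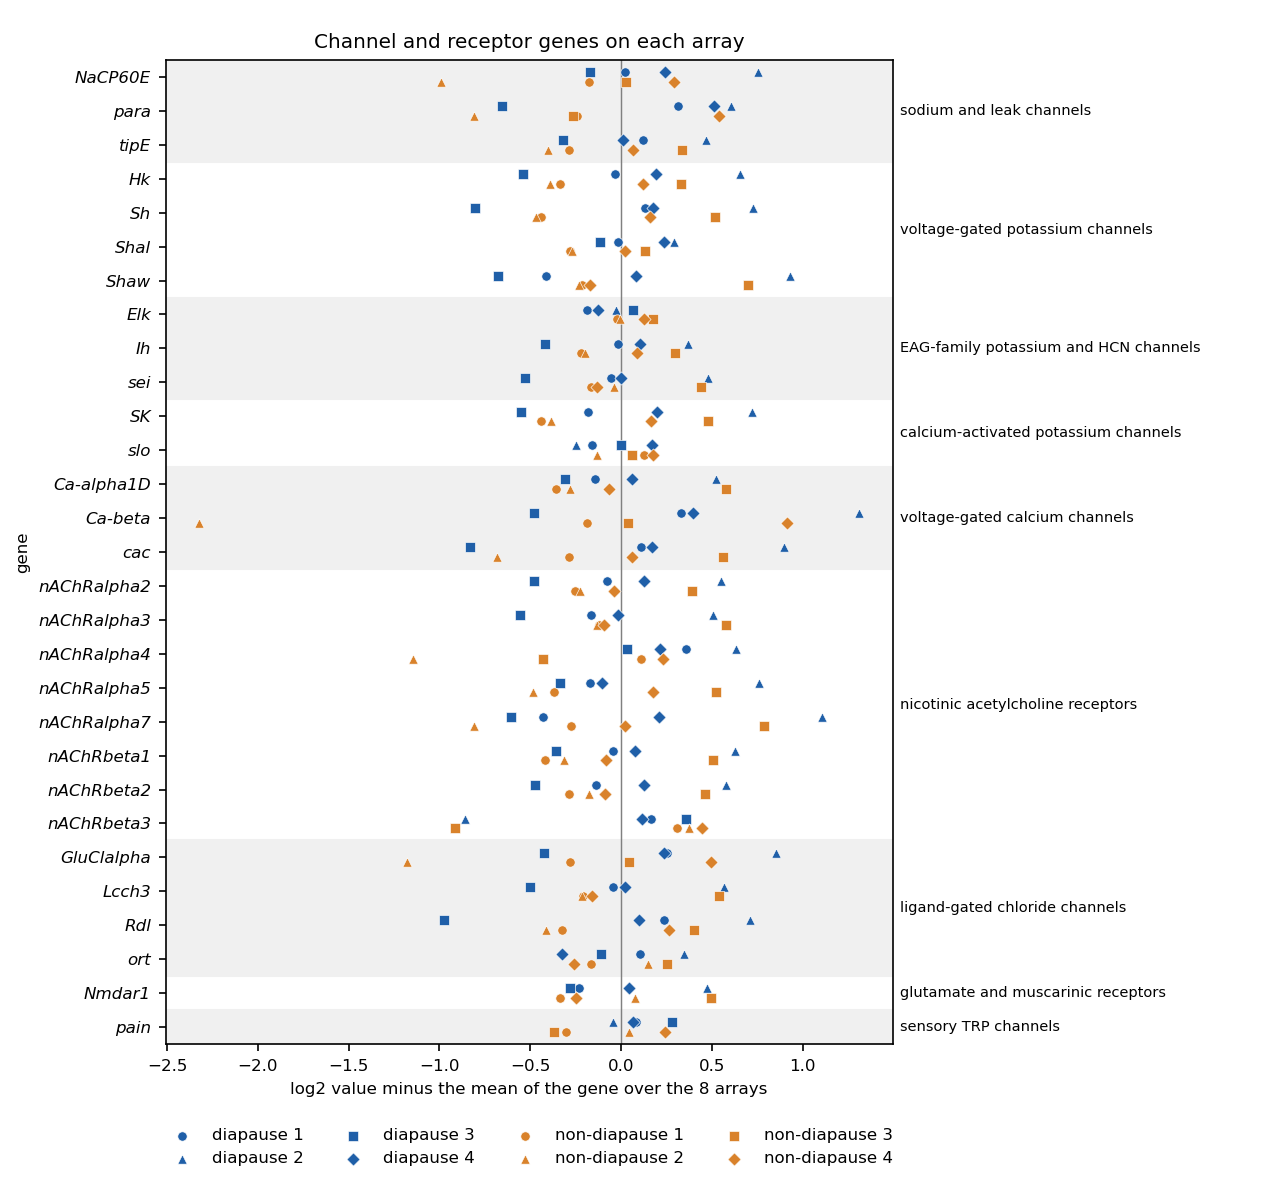
Signal of the 29 detected genes on each array, as the log2 value minus the gene's mean over the 8 arrays, with colours for the groups and symbols for the replicates. Diapause 2 lies highest in its group for 25 genes and diapause 3 lowest for 24, and Ca-beta on non-diapause 2 lies farthest from its mean.

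Several genes departed from this order. Non-diapause 1, not 2, was the lowest array of its group for 10 genes: Shal, sei, Elk, Ih, SK, Ca-alpha1D, nAChRalpha2, nAChRbeta1, nAChRbeta2 and Nmdar1. In para, NaCP60E, Ca-beta, nAChRalpha4 and GluClalpha, diapause 2 and 3 were still the highest and lowest of their group, but non-diapause 4 was the highest of its own and non-diapause 2 the lowest. These 5 genes were also those with the largest differences, from 0.39 to 0.78, and without non-diapause 2 their differences were 0.18, 0.17, 0.14, 0.34 and 0.14 in that order. In slo, nAChRbeta3 and pain, diapause 2 was the lowest array of its group. Elk was highest on diapause 3, and ort lowest on diapause 4 and non-diapause 4.

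Markers of neurons followed the same order of arrays. Averaged over the 29 channel and receptor genes, the deviation from each gene's mean was -0.01, 0.53, -0.37 and 0.11 on diapause arrays 1 to 4 and -0.22, -0.42, 0.26 and 0.11 on non-diapause arrays 1 to 4. For the 10 detected neuron markers it was -0.09, 0.55, -0.29 and 0.10, and -0.22, -0.39, 0.29 and 0.08. Both lists were thus highest on diapause 2 and non-diapause 3 and lowest on diapause 3 and non-diapause 2. Of the neuron markers, 9 of 10 had a higher mean in diapause, with a median difference of 0.12, and 0 had an unadjusted limma p under 0.05. The other marker lists differed in their counts: 7 of 7 muscle markers (median 0.16, 1 at an unadjusted limma p under 0.05) and 5 of 6 glia markers (0.09, 1 at that level) had a higher mean in diapause, and 5 of 5 photoreceptor markers had a lower one (-0.04, 0 at that level). Midgut markers had a higher mean in diapause in 6 of 6 cases (median 2.76, 0 at that level). Their mean was 2.38 on non-diapause 3, against 11.97 to 13.45 on the other non-diapause arrays. That array was also the highest of its group for 21 of the 29 channel and receptor genes. Fat body markers (Yp1, Yp2, Yp3, Lsp2, fit, apolpp and FASN1) had a lower mean in diapause in 7 of 7 cases, with a median of -0.26. FASN1 was nearly level at -0.006, while the other 6 had an unadjusted limma p under 0.05. The groups did not overlap for 4 of the 7. Over the 8760 probe sets, 6.13% had such a p and 4.03% no overlap. Yp1, Yp2 and Yp3 encode yolk proteins and the flies were sorted by ovarian state. Lsp2 (-0.33), fit (-0.84) and apolpp (-0.10) were lower as well. Whether these counts reflect fat body content was not tested. The mean level of the fat body markers was 14.63 to 14.83 in diapause and 14.90 to 15.19 in non-diapause. The neuron marker mean was used as a covariate in a fit given below. The part of the other lists in the values of the channel genes was not tested. Glia markers, with deviations from -0.19 to 0.14, and muscle markers, from -0.28 to 0.14, had other orders. The 5 photoreceptor markers were highest on diapause 2 (0.22) and non-diapause 3 (0.24). Of 11 listed photoreceptor markers, 6 had no matched probe set, among them ninaE, Rh3, Rh4 and Rh6. The same held for 2 of 9 muscle markers and for 1 marker each of neurons, glia and midgut.

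**Figure D3:**
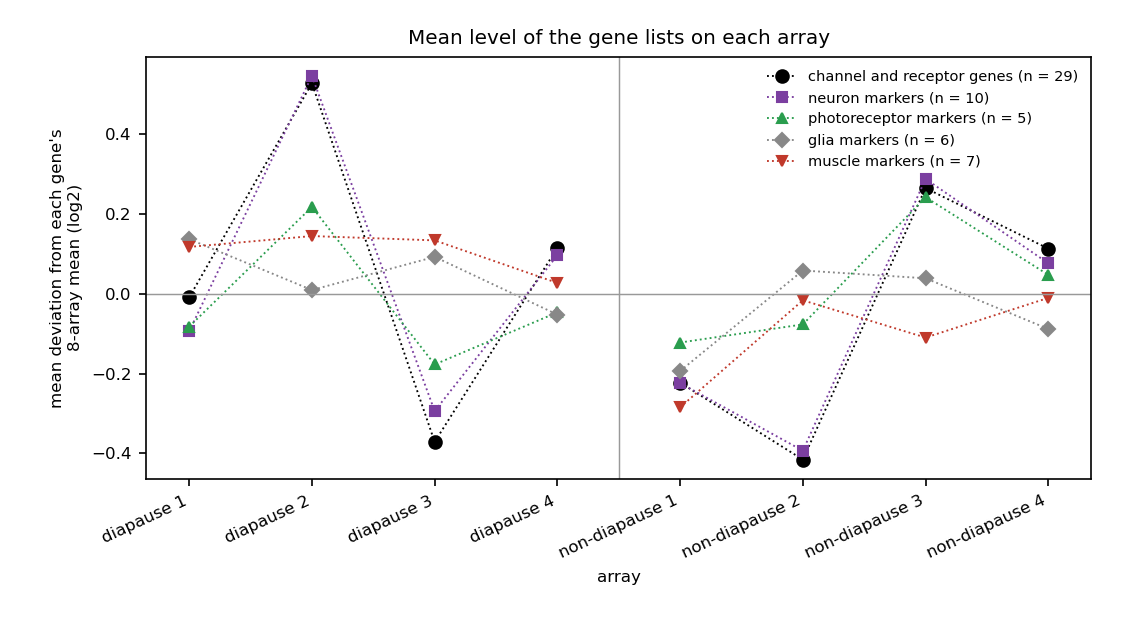
Mean deviation of each gene list from its genes' means over the 8 arrays (log2), by array, with 1 symbol per list and dotted lines only to guide the eye. The channel and receptor genes and the neuron markers lie close together on all arrays, from -0.42 and -0.39 on non-diapause 2 to 0.53 and 0.55 on diapause 2.

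Signs of RNA quality moved in part with this order. The signal of the actin control Act5C at its 3 prime end minus that at its 5 prime end was 3.72, 3.48, 2.21 and 2.96 on the diapause arrays and 2.50, 3.19, 3.54 and 3.22 on the non-diapause arrays. Diapause 3 had the smallest such gap of its group for Act5C, for GAPDH (1.53) and for eIF-4a (3.31), and non-diapause 3 the largest of its group for all 3 controls. The other extremes did not follow the channel genes: the largest diapause gap was on diapause 1 and the smallest non-diapause gap on non-diapause 1, for all 3 controls. The groups overlapped in it for all 3 controls (exact permutation p of 0.914, 1 and 0.429). Its part in the spread of the channel genes was not tested.

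With the mean of the neuron markers on each array as a covariate in limma, a fit added after the data were seen, the 95% intervals of the 29 genes narrowed from a median of 0.69 to 0.33 to either side, and those of the 8760 probe sets from 0.30 to 0.23. The intervals of 26 genes then lay within -1 and 1, and those of 16 within -0.5 and 0.5. Of the 29 differences, 10 were above 0 (46.6% of the 8760 probe sets), and their median was -0.07. There were 0 of 29 genes at an unadjusted p under 0.05, where 10.9% of the 8760 probe sets had one, and the smallest p was 0.0788, for Shal (difference 0.13). In this fit nAChRalpha4 differed by 0.53 (-0.27 to 1.32) and Ca-beta by 0.46 (-0.89 to 1.80), in the same direction as before, and both intervals crossed 0. The neuron markers followed the same order of arrays. The fit therefore describes differences relative to these markers and is no separate support for a direction. Small differences changed sign, among them cac (-0.06) and SK (-0.09).

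Several genes were read by more than 1 detected probe set. Sh had 4, with means of 10.39, 9.20, 8.90 and 5.01 and differences of 0.12, 0.50, 0.46 and -0.24, so its probe sets disagreed in direction. The dimmest of them was high on 1 array, non-diapause 4 (5.84), and at 4.81 to 4.96 on the other 7. The 3 probe sets of GluClalpha gave 0.46, 0.41 and 0.15, those of nAChRbeta1 0.15 and 0.32, those of Hk 0.14 and 0.13, and those of SK 0.09 and 0.11. Those of Shaw gave -0.04 and 0.12. The order of arrays held in most but not all of them: the second probe set of Shaw was highest on diapause 3 (6.33) and diapause 2 (6.28). For 4 genes, tipE, sei, SK and nAChRalpha2, the probe set used was of a type that can match further transcripts, and their values are uncertain to that extent.

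**Figure D4:**
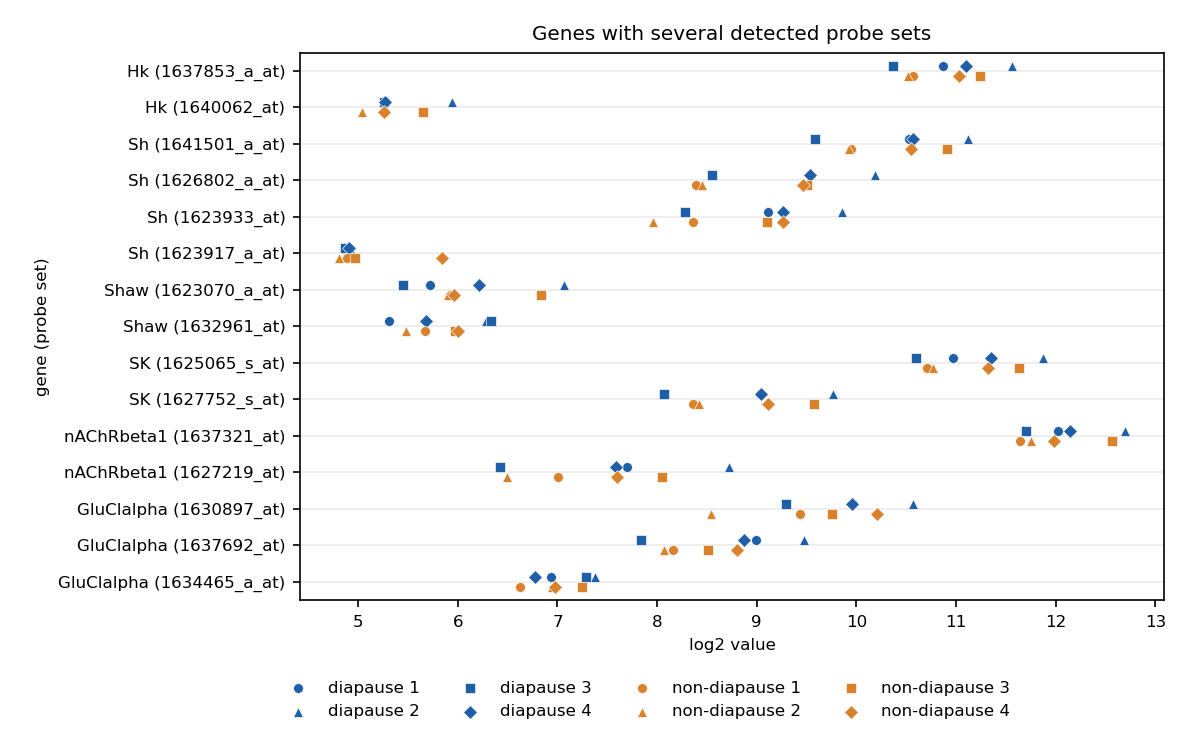
Log2 value on each array for every detected probe set of the 6 genes with more than 1, colours and symbols as for the single genes. Levels of different probe sets cannot be compared, but diapause 2 is the highest diapause array in most, and the dimmest Sh probe set is high on non-diapause 4 alone (5.84).

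Related genes were taken from a list of 64, of which 56 were matched and 42 detected. Of these 42, 30 had a higher mean in diapause (51.4% of the 8760 probe sets), with a median difference of 0.07. That count is given for all 8 arrays only, and part of the related genes shared the order of arrays. Diapause 2 was the highest diapause array for 9 of 9 channel partners and regulators and 8 of 10 genes of transmitter supply and clearance. For other potassium channel genes it was so for 3 of 8. An unadjusted limma p under 0.05 was found for 2 of them, 1 in each direction (6.13% of the 8760 probe sets in either direction), and 0 passed the adjusted threshold. Ace encodes acetylcholinesterase, which breaks down acetylcholine at the synapse. It stood at 9.49, 9.80, 9.58 and 9.47 in diapause and 9.42, 9.09, 9.18 and 9.45 in non-diapause. The groups did not overlap, with a difference of 0.30 (0.02 to 0.57, exact permutation p = 0.0286, the smallest that 4 against 4 arrays allow, limma unadjusted p = 0.0376 and adjusted p = 1), while 4.03% of probe sets of that level showed no overlap. The second gene was ps, for an RNA-binding protein that guides splicing, at 11.66, 11.66, 11.65 and 11.66 in diapause and 11.77, 11.68, 11.74 and 11.78 in non-diapause (difference -0.09, exact permutation p = 0.0286, limma adjusted p = 1). Its other 3 detected probe sets gave the opposite sign, 0.24, 0.43 and 0.24. The probe set used for ps was of a type that can match further transcripts. Its diapause arrays spanned only 0.0104, against 0.105 for its non-diapause arrays.

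No class of related genes held more than 1 gene with an unadjusted p under 0.05. Of 9 detected partners and regulators of channels, 7 had a higher mean in diapause, and the smallest p was 0.204, for the calcium channel subunit gene Ca-Ma2d (difference 0.21, limma adjusted p = 1). Of 8 other potassium channel genes, 4 were higher, with the smallest p, 0.130, for the leak channel gene Ork1 (-0.39, limma adjusted p = 1). Of 9 other transmitter receptor genes, 6 were higher, led in p by the muscle glutamate receptor gene GluRIID (0.22), and of 3 other TRP and cyclic nucleotide channel genes, 2 were higher, led by CngA (0.12). Among 10 genes of transmitter supply and clearance, 9 were higher, Ace with the smallest p, and ChAT, which makes acetylcholine, differed by 0.04. The last class was the regulators of channel transcripts, with 2 of 3 higher and pum, a repressor of para translation, at 0.19.

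**Figure D5:**
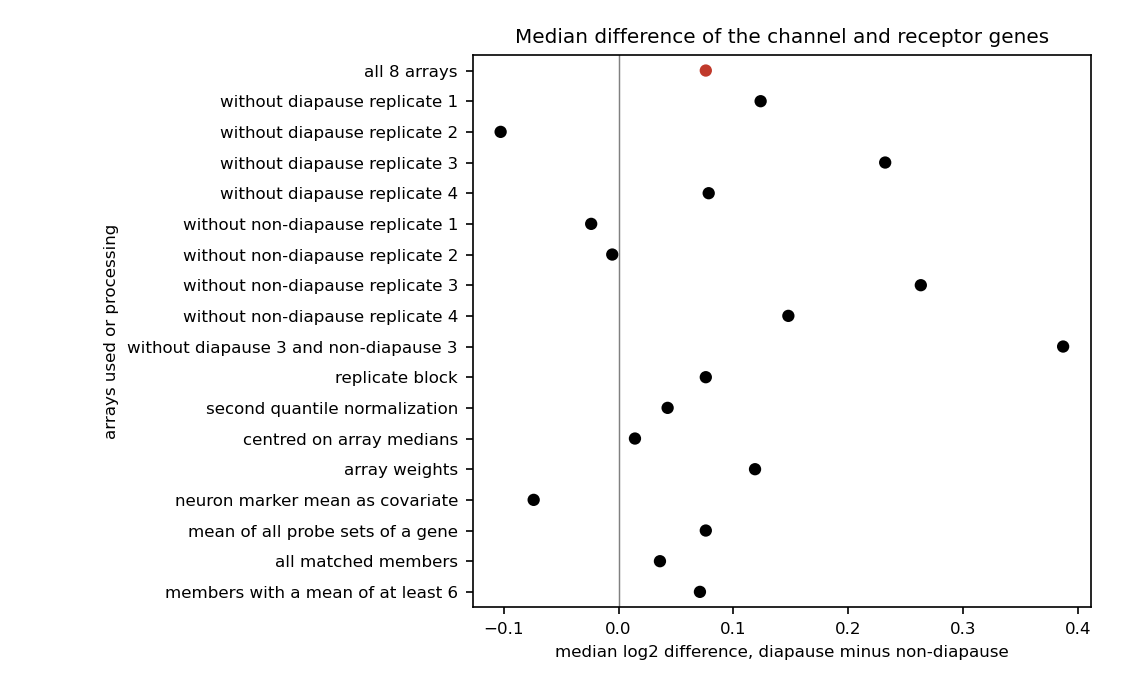
Median difference of the channel and receptor genes (log2, diapause minus non-diapause) with all 8 arrays (red) and under the alternative arrays or processing named on the left. The median was 0.08 with all arrays, -0.10 without diapause 2 and 0.39 without diapause 3 and non-diapause 3 together.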

How the data were processed

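Head RNA of Canton S females (biotin-labelled cRNA from 6 µg of total RNA) was hybridised to 8 Affymetrix Drosophila arrays, 4 diapause and 4 non-diapause, grouped by sample titles. What the authors deposited are log2 values from GCRMA, as the submitters' processing notes name it, with the version not given in the sources used. GCRMA corrects background by probe sequence and pulls dim probe sets to a floor, and values there have no order. No further normalization was applied.

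Genes were named by the platform annotation, and 41 of 41 symbols matched a reference gene table by Entrez identifier (Release 6, names and neighbours only). The 2 groups were compared in R 4.3.3 by limma 3.58.1 (default prior with 0.327 degrees of freedom, 2-sided), adjusted by Benjamini-Hochberg over 18769 probe sets after leaving out 183 controls, at 0.05. This step was first run on simulated data with known differences, to check that their mean estimate was recovered. That check does not show how often a difference of a given size would be called. Single genes were also tested by an exact 2-sided permutation test over 70 assignments. Intervals are 95%.

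Values on every array were given, by rule, for genes at unadjusted p under 0.05, detected genes without overlap, and the brightest gene and the gene with the largest difference of each class, 16 in all. The members, lists and rule were chosen with earlier results of these data known. Alternatives were each array left out, diapause 3 and non-diapause 3 left out, a replicate block, second quantile normalization, median centring, array weights, limma-trend with and without a robust prior, filters at a mean of 4 or 6, averaging a gene's probe sets, and, chosen after seeing the data, the neuron marker mean as a covariate.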

Additional observations from a re-analysis of the deposited data

Results flagged for a closer look

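In 58 groups of 4 arrays (29 genes in 2 groups), 4 had 1 array whose gap to the others exceeded Dixon's 95% critical value. Chance would mark about 1 group in 20 if the groups were independent, but these genes shared much of their order of arrays. All 4 concerned non-diapause 3, so they are not 4 independent observations. Midgut markers also had their lowest mean, 2.38, on non-diapause 3. Shaw read 6.83 there and 5.90 to 5.96 on the other non-diapause arrays. The nicotinic subunit gene nAChRalpha3 read 7.52 against 6.81 to 6.85. The GABA receptor gene Lcch3 read 10.33 against 9.57 to 9.63. The nicotinic subunit gene nAChRbeta3 was the 1 that was low, at 6.73 against 7.96 to 8.09.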

How the results depend on the processing

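The number of genes past the adjusted threshold was 0 with each of the alternatives run. At an unadjusted p under 0.05 it was 0 to 1 with single arrays left out and 1 with array weights, Elk in both cases (-0.18 without diapause 3, -0.19 with array weights). The count of genes above 0 was 9 to 26 with single arrays left out, 10 with the neuron marker covariate, 20 after a second quantile normalization (39.6% of detected probe sets) and 17 after median centring (32.6%), where all probe sets together had a median of -0.06. The median difference was -0.10 to 0.26 with single arrays left out. Of the 16 genes named by rule, 9 kept their direction throughout, though not their size (tipE ran from 0.00986 to 0.28 with single arrays left out). The other 7 turned in at least 1 of the alternatives. With single arrays left out, Hk ran from -0.0591 to 0.34, Ih from -0.10 to 0.16, SK from -0.13 to 0.29, cac from -0.10 to 0.48, nAChRbeta1 from -0.0297 to 0.35, Lcch3 from -0.16 to 0.21 and Nmdar1 from -0.15 to 0.17. With the covariate, Hk was -0.0230, Ih -0.0880, SK -0.0947, cac -0.0560, Lcch3 -0.117 and Nmdar1 -0.0980. After quantile normalization Ih was -0.00131 and Nmdar1 -0.0272, and after median centring Ih was -0.0442, Lcch3 -0.0386 and Nmdar1 -0.0578. The causes were not tested. The numbers in the sample titles are not said to mark a shared batch, so they were not taken to pair arrays. The deviations of same-numbered arrays of the 2 groups had r from -0.66 to -0.02. Those of differently numbered arrays ran from -0.42 to 0.44, so r cannot decide whether the numbers mark a batch. With the replicate block, 0 genes passed, 23 were above 0 and the median was 0.08. Genes within 0.01 of the floor on every array (na, Grd and nan) could not show a difference.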
